A study of Mus musculus with 6 samples.

Results

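The genes described here encode the heat shock proteins of the cytosol and mitochondria with their J-domain partners, in the kidney of BALB/c males 8 weeks old. The members were chosen by gene symbol. They are the HSP70, HSP90, HSP60, HSP10, HSP110 and small heat shock protein genes, the Dnaja, Dnajb and Dnajc genes, the co-chaperone genes Stip1, Ahsa1, Chordc1 and Bag3, and the transcription factor genes Hsf1 and Hsf2. The rule left out 6 genes of the endoplasmic reticulum: Hspa5, Hspa13, Dnajb9, Dnajb11, Dnajc3 and Dnajc10. It found 83 of the 51803 gene symbols in the table, with 341 transcripts. Of these 83, 12 carry a pseudogene symbol and 9 were listed at 0 in all libraries. A mean of at least 1 FPKM (fragments per kilobase, corrected for the size of the library) was reached by 61 members, 2 of them pseudogenes, and by 12709 symbols in all. The other 22 members were not tested, and the highest mean among them was 0.825 FPKM (Dnajc27).

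The study sequenced kidney RNA every 4 h under a light/dark cycle, from zeitgeber time 0 (ZT0, lights on) to ZT20, to find genes with a daily rhythm. All groups share strain, sex and age, and each time is 1 library, so no value has a spread between replicates. The standard error (SE) of a fitted wave reflects how far the libraries lie off the curve, and differences between mice are part of it. The fitting software, limma, moderates it with all symbols tested, so it is not the gene's own scatter alone. The labels do not say how many mice went into a library.

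Heat shock proteins are chaperones that bind unfolded or newly made proteins. HSP70 works in a cycle with J-domain proteins, which deliver clients and start ATP hydrolysis, and with exchange factors such as HSP110 and BAG3, which release them. HSP90 takes over clients such as steroid receptors and kinases from HSP70 by way of STIP1. In mitochondria, the HSP70 protein mortalin and the HSP60/HSP10 chamber fold imported proteins. The transcription factor HSF1 turns on many of these genes when proteins unfold, through heat shock elements in their promoters, and in mouse liver its DNA binding is known to follow a daily cycle.

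More of the members had their highest value at ZT16 than at any other time. This time was looked at with earlier results of these data known, so the counts are a description. Of the 61 members tested, 25 (41.0%) were highest at ZT16, against 16.6% of all symbols tested, and 16 (26.2%) stood at least 1.5-fold above the mean of the other 5 libraries on the log2(FPKM + 1) scale, against 1.64% of all symbols. No member stood 1.5-fold below that mean at ZT16 (1.14% of all symbols did). All members together, summed over transcripts and symbols, took 1.12% of the FPKM outside the mitochondrial genome at ZT16, and 0.704%, 0.876%, 0.801%, 0.833% and 0.858% at ZT0, ZT4, ZT8, ZT12 and ZT20. ZT0 was the lowest library for 17 members (27.9%, against 13.2% of all symbols). The highest library was at least 2-fold above the lowest, on the same scale, for 13 members (21.3%, against 5.26%). These counts describe 1 library at ZT16 and have no replicate check. In whole kidney, fewer cells of a type and less RNA per cell cannot be told apart.

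**Figure D1:**
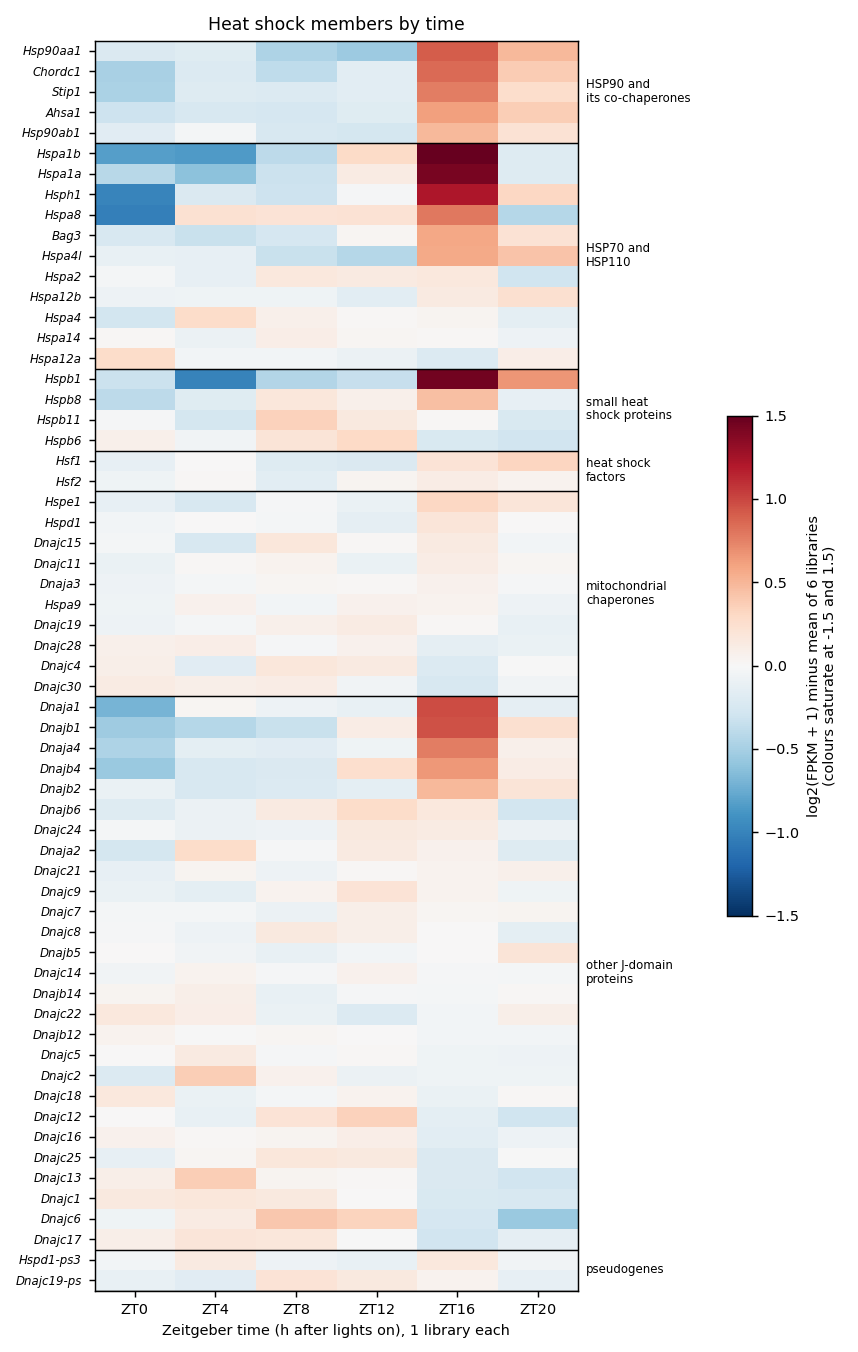
Colours give log2(FPKM + 1) minus the mean over 6 libraries for each of the 61 members tested (rows, grouped by role), at each zeitgeber time (columns, 1 library each). The ZT16 column is red for the HSP90 group, for Hspa1b, Hspa1a, Hsph1 and Hspb1 and for 5 of the J-domain genes, and pale for the mitochondrial group and most other J-domain genes.

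A wave of 24 h was fitted to every symbol with limma. At a Benjamini-Hochberg adjusted p under 0.05, 0 of the 61 members were called, against 0.283% of all symbols (36 of 12709). The smallest adjusted p among members was 0.110, for Bag3 and Dnajc6. At an unadjusted limma p under 0.05 there were 24 members (39.3%), against 19.1% of all symbols. Of these 24, 17 had a fitted peak between ZT12 and ZT24 (27.9% of members, 11.2% of all symbols), 14 of them between ZT14 and ZT20 (23.0% of members, 7.9% of all symbols), and 7 between ZT0 and ZT12 (11.5% of members, 7.94% of all symbols). Leaving out the ZT16 library gave 11 members (18.0%, against 12.7% of all symbols). Without ZT20 there were 10 (16.4%, against 9.1%), and without ZT8 there were 13 (21.3%, against 17.6%).

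A wave of 12 h, of which 6 times at 4 h cover a pair of cycles, called 0 members at adjusted p under 0.05 (0.0551% of all symbols, 7 of 12709, limma). It had 0 members at unadjusted p under 0.05 as well, against 1.31% of all symbols. Without the ZT4 library 7 members (11.5%) had an unadjusted p under 0.05 for this wave, against 1.61% of all symbols.

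**Figure D2:**
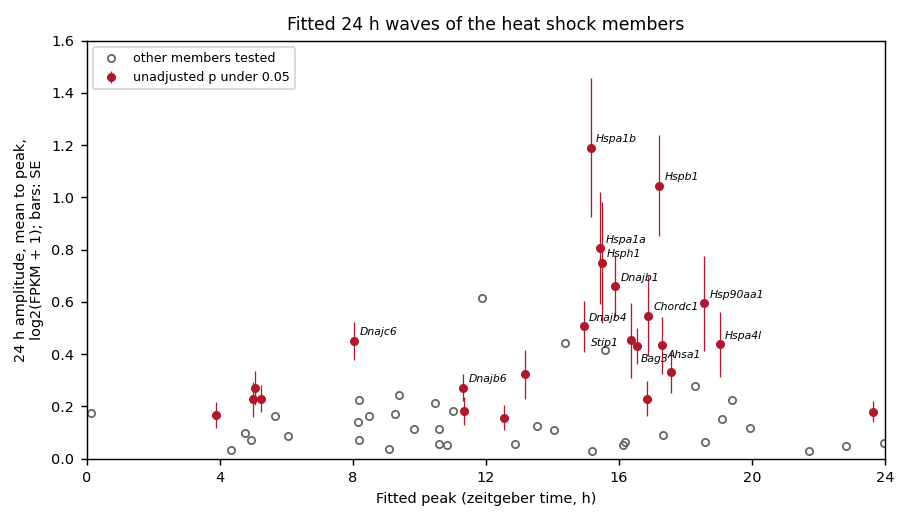
Each point is 1 of the 61 members tested, with its fitted peak time (x axis, zeitgeber time in h) and 24 h amplitude from mean to peak (y axis, log2(FPKM + 1), bars are SE). Filled points had an unadjusted p under 0.05, and those with the largest amplitudes, Hspa1b and Hspb1, peaked at ZT15.1 and ZT17.2.

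A list of 18 members known from heat shock work as targets of HSF1 was set against the rest. It was chosen with earlier results of these data known, so its direction is no independent evidence. Every one of the 18 was highest at ZT16, against 16.6% of all symbols tested. The second highest library was ZT20 for 12 of them, ZT12 for 3, ZT4 for 2 and ZT8 for 1. ZT0 was the lowest library for 9, ZT4 for 5 and ZT12 for 4. The median of the 18, as log2(FPKM + 1) minus the gene's own mean, was -0.41, -0.21, -0.25, -0.11, 0.78 and 0.22 from ZT0 to ZT20, while the median of all symbols tested stayed between -0.03 and 0.02. Of the 18, 14 stood at least 1.5-fold higher at ZT16, against 1.64% of all symbols. An unadjusted limma p under 0.05 was found for 14 (77.8%), against 19.1% of all symbols. Among the 43 tested members outside the list, 7 were highest at ZT16, near the 16.6% of all symbols. Of these 43, 10 had an unadjusted limma p under 0.05, against 19.1% of all symbols. Only 2 stood 1.5-fold higher at ZT16, Dnaja4 and Dnajb2, against 1.64% of all symbols. The median deviation of the 43 at ZT16 was 0.01.

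Of the members tested, the inducible HSP70 gene Hspa1b had the largest ratio of highest to lowest level, 8.54. Hspa1b (ENSMUSG00000090877, chromosome 17, 34956436 to 34959238, reverse strand, GRCm38) was at 4.30, 4.20, 6.16, 10.5, 35.8 and 7.23 FPKM in time order from ZT0 to ZT20. Its neighbour Hspa1a, on the same strand from 34969190 to 34972156, was at 1.92, 1.54, 2.12, 3.27, 9.52 and 2.42 FPKM. Both genes were already above their level of the earlier times at ZT12, peaked at ZT16 and were back near the ZT8 level at ZT20. The ZT16 level was 5.53 times the mean of the other 5 libraries for Hspa1b and 4.22 times for Hspa1a. Fitted amplitudes were 1.19 ± 0.27 for Hspa1b and 0.81 ± 0.21 for Hspa1a (SE, log2 scale, n = 6 libraries), with limma adjusted p of 0.172 and 0.211. Without the ZT16 library these amplitudes were 0.68 for Hspa1b and 0.39 for Hspa1a. For each gene the 24 h curve took more of the variance than in any other of the 60 circular orders of the libraries (exact permutation test, p = 0.0167, the smallest that 60 orders can give). This test was run for all 61 members without adjustment and not for other symbols, so no share over all symbols is known. The smallest value was reached by 5 members: these 2 genes, Bag3, Dnajb5 and Dnajc17. The exact permutation p was 0.0333 for Hspb1, 0.0667 for Dnajb1, 0.2 for Hsph1, 0.267 for Hspa8, 0.317 for Hsp90aa1 and 0.567 for Dnaja1. The transcripts of Hspa1b and Hspa1a are 92.8% identical over 2748 aligned bases, so reads may be shared between them and their separate levels are uncertain. An annotated gene, Gm20481, also overlaps Hspa1a on the opposite strand.

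Hsph1, the HSP110 protein that releases nucleotide from HSP70, was at 28.2, 48.8, 45.8, 56.3, 133 and 71.0 FPKM in time order. Every time stood above ZT0, and ZT16 was 2.67 times the mean of the others. Its amplitude was 0.75 ± 0.23 with a fitted peak at ZT15.5 (limma adjusted p = 0.254), and without the ZT16 library it was 0.44. The related gene Hspa4l was at 9.65, 9.53, 8.17, 7.53, 16.1 and 14.5 FPKM, so that ZT20 stood close to ZT16. Summed over transcripts, Hspa4, also of the HSP110 family, was highest at ZT4 and lowest at ZT0, at 44.2, 65.2, 56.9, 54.6, 55.6 and 48.7 FPKM. Its coding FPKM alone was 36.4, 43.6, 39.8, 39.7, 45.9 and 43.1, highest at ZT16.

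Hspa8 encodes the constitutive HSC70, and it was the most abundant member, with a mean of 607 FPKM. Its levels in time order were 277, 660.1, 649.7, 658, 980.1 and 419.7 FPKM. It was low at ZT0 and ZT20, level from ZT4 to ZT12 and highest at ZT16, and the highest level was 3.54 times the lowest. This shape is not a simple cosine: the fitted peak fell at ZT11.9 with an amplitude of 0.61 ± 0.22 (limma adjusted p = 0.298), and without the ZT0 library the amplitude was 0.34. Bag3, which joins HSP70 to small heat shock proteins in selective autophagy, was at 9.27, 8.58, 9.13, 11.4, 17.0 and 13.1 FPKM. The wave of Bag3 peaked at ZT16.5 ± 0.6 h, and its amplitude was 0.43 ± 0.07 (limma adjusted p = 0.110). Its curve also took the largest share of variance of the 60 orders (exact permutation test, p = 0.0167). Among the remaining HSP70 relatives, Hspa14, which acts at the ribosome, lay between 14.8 and 17.1 FPKM.

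**Figure D3:**
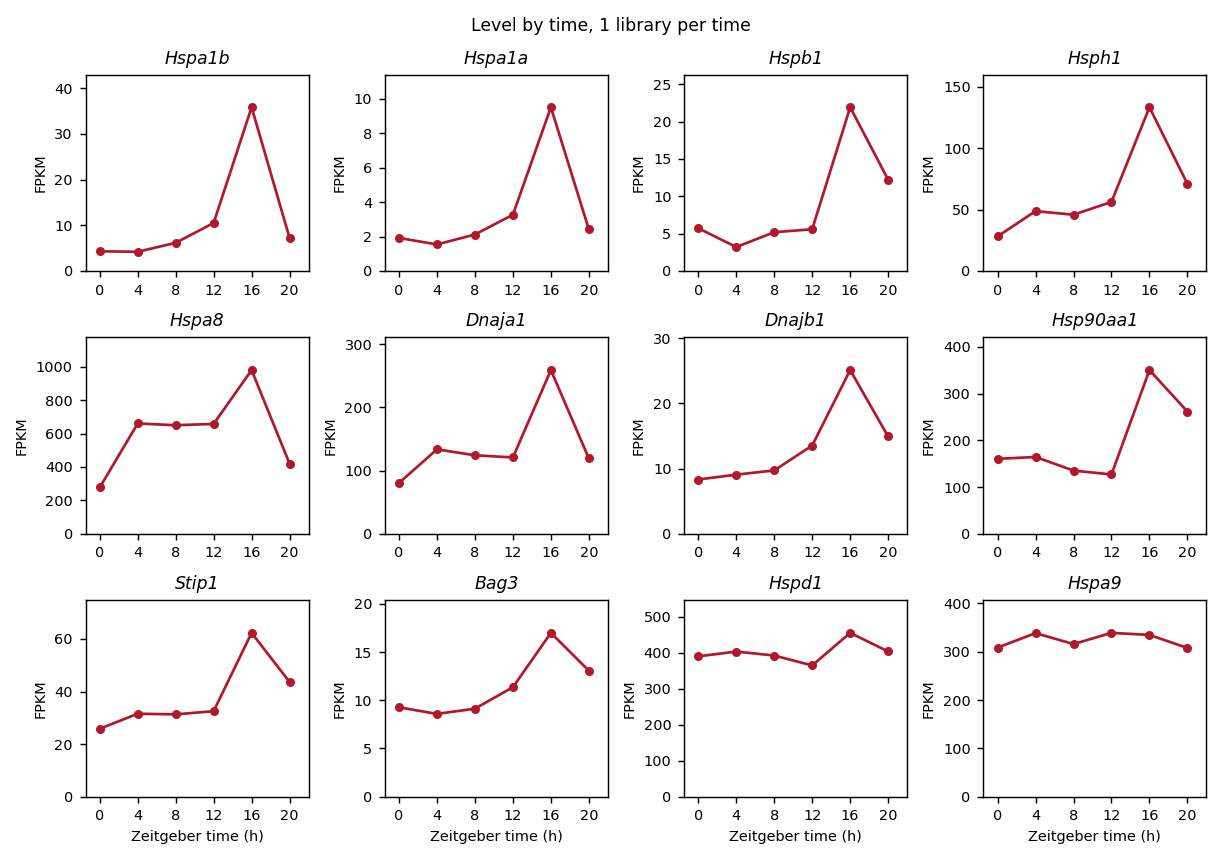
FPKM of 12 members (panels, y axes start at 0) at each zeitgeber time (x axis, 1 library each). Hspa1b and Hspa1a show a single high library at ZT16, Hspb1 and Hsp90aa1 also stand high at ZT20, Hspa8 and Dnaja1 a low ZT0 and a level stretch from ZT4 to ZT12, and the mitochondrial Hspd1 and Hspa9 differ by at most 1.25 and 1.10 times between times.

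Promoter sequence was searched because many of these members were high in the same library. The windows, from RefSeq on GRCm38.p6, run from 250 bases before to 50 after each start, and 47 of the 61 members tested and 9032 of all symbols tested had one, taken as the entry nearest the start of their most abundant transcript. The heat shock element was written as GAANNTTC or TTCNNGAA (2 units, each its own reverse complement) and as GAANNTTCNNGAA or TTCNNGAANNTTC (3 units, reverse complements of each other, each containing the 2-unit form). The 2-unit form was in 13 of 47 members (27.7%), against 11.5% of all symbols, and the 3-unit form in 5 of 47 (10.6%), against 0.399%. The members with the 3-unit form were Chordc1, Dnajb6, Hspd1, Hspe1 and Hsph1. Stretches with a 2-unit form that lies wholly before the start are shown here, 5′ to 3′ on the gene's strand with the element in capitals and up to 30 bases on each side, going no further than the last base before the start.
Hspa1b (chr17:34959305-34959372, reverse strand): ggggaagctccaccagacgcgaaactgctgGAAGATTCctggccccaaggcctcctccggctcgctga
Hspa1a (chr17:34972223-34972290, reverse strand): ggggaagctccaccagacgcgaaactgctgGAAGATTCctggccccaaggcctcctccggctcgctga
Hsph1 (chr5:149636337-149636399, reverse strand): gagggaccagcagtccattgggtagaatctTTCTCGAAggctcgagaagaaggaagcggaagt
Hspb1 (chr5:135887772-135887859, forward strand): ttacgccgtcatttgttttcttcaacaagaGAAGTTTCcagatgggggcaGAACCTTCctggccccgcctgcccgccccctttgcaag
Dnaja1 (chr4:40722314-40722381, forward strand): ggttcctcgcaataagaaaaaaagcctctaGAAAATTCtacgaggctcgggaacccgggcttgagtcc
Dnaja4 (chr9:54699439-54699544, forward strand): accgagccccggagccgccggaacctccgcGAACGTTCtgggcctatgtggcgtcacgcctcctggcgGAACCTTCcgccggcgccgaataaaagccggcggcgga
Dnajb4 (chr3:152193846-152193889, reverse strand): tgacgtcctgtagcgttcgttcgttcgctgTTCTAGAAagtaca
Hspe1 (chr1:55088029-55088106, forward strand): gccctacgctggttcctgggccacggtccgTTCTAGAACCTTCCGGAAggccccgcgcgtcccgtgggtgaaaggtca
Dnajb6 (chr5:29735822-29735894, forward strand): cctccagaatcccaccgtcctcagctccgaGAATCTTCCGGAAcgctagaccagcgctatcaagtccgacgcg

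The stretches of Hspa1b and Hspa1a are identical over these 68 bases. The Hspe1 stretch lies between the RefSeq starts of Hspe1 and Hspd1, which face away from each other on chromosome 1, and falls in both windows. In Hspb1 and Dnaja4 a pair of 2-unit elements stand apart, while in Dnajb6 and Hspe1 the units run on in 1 block. The 3-unit element of Hsph1 lies after its start, so the stretch shown holds only a 2-unit one. The elements of Bag3 and Hspb8, and all but part of 1 in Chordc1, lay after the start and are not printed. The windows of Stip1, Ahsa1 and Dnajb1 hold no match to these letters. In the 13 members with a 2-unit match, the median of log2(FPKM + 1) at ZT16 minus the mean of the other libraries was 0.92, against 0.02 in the 34 without. Of these 13, 11 are on the heat-inducible list. Within that list, 8 of the 11 with a 2-unit match (72.7%) stood 1.5-fold higher at ZT16, against 4 of 4 without, and for the 3-unit form these were 2 of 4 with it and 10 of 11 without (90.9%). Among symbols that are no members, 1.26% of the 1030 with a 2-unit match stood 1.5-fold higher at ZT16, against 0.767% of those without, and of the 31 with a 3-unit match 0 did, against 0.826% of those without. A match is a description of the letters and was not tested as a binding site.

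Of the HSP90 group, all 5 genes were highest at ZT16 and next highest at ZT20. Hsp90aa1, the inducible cytosolic HSP90 (ENSMUSG00000021270, chromosome 12, 110690605 to 110702728, reverse strand), was at 160.3, 164, 135, 127, 350.5 and 262 FPKM in time order. Hsp90ab1, the constitutive form, was at 474, 522, 453, 443, 745 and 619 FPKM, the second highest mean of the members. ZT16 was 2.07 times the mean FPKM of the other libraries for Hsp90aa1 and 1.48 times for Hsp90ab1. On the log2(FPKM + 1) scale, where the 1.5-fold line is set, Hsp90ab1 was also just under it. The co-chaperone gene Stip1, whose protein hands clients from HSP70 to HSP90, was at 25.8, 31.5, 31.3, 32.5, 62.3 and 43.6 FPKM. Ahsa1 and Chordc1 encode partners that act on the HSP90 ATPase cycle and on client binding. Ahsa1 was at 37.9, 40.0, 39.4, 41.4, 73.0 and 61.1 FPKM, and Chordc1 at 13.6, 16.9, 14.8, 17.4, 36.0 and 25.8 FPKM. For each of these genes both ZT16 and ZT20 stood above all 4 times from ZT0 to ZT12. Amplitudes were between 0.28 ± 0.11 (Hsp90ab1) and 0.59 ± 0.18 (Hsp90aa1), with peaks from ZT16.4 to ZT18.6 and limma adjusted p between 0.198 (Ahsa1) and 0.346 (Hsp90ab1). Without the ZT16 library the amplitude of Hsp90ab1 was 0.17, that of Stip1 0.25 and that of Chordc1 0.34.

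Small heat shock proteins hold unfolding proteins in a state that HSP70 can refold. This group was formed by the Hspb symbol and not by what each protein does, and 4 of its 8 members were tested. Hspb1, which encodes HSP25, was at 5.71, 3.20, 5.19, 5.58, 21.9 and 12.2 FPKM in time order. ZT16 and ZT20 stood above all the other times, and the amplitude of 1.05 ± 0.19 with a peak at ZT17.2 ± 0.7 h was second to that of Hspa1b (limma adjusted p = 0.133, exact permutation test p = 0.0333). Hspb8, the partner of BAG3, was at 3.14, 3.80, 5.10, 4.71, 6.43 and 4.00 FPKM. Hspb6 and Hspb11 had their highest levels at ZT12 and ZT8, at 6.12 and 7.91 FPKM, and lay between 3.74 and 5.61 FPKM (Hspb6) and between 4.82 and 6.76 FPKM (Hspb11) at the other times. On average 85.1% of the Hspb6 FPKM lay in transcripts not annotated as protein-coding. The coding transcripts of Hspb6 were at 0.585 FPKM at ZT12 and highest at ZT20, at 0.947 FPKM.

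**Figure D4:**
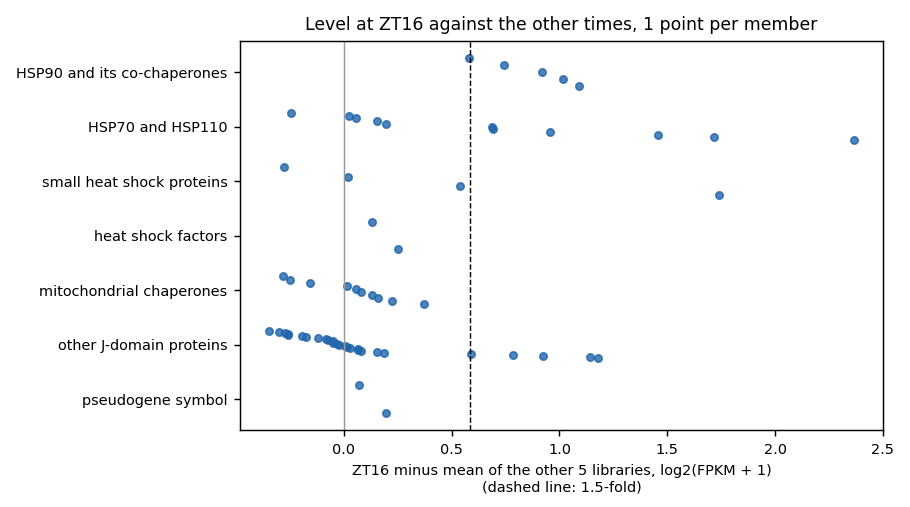
Each point is 1 member, placed by log2(FPKM + 1) at ZT16 minus the mean of the other 5 libraries (x axis) within its role (rows). In the HSP90, HSP70 and HSP110, small heat shock protein and J-domain groups, 16 members lie to the right of the dashed 1.5-fold line, and no mitochondrial chaperone does.

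The J-domain genes were divided. Of the 27 cytosolic, nuclear and membrane J-domain genes tested outside the mitochondrial group, 5 were highest at ZT16. That share is near the 16.6% of all symbols. The same 5 stood at least 1.5-fold higher there, against 1.64% of all symbols: Dnaja1, Dnajb1, Dnaja4, Dnajb4 and Dnajb2. Dnajb1, which encodes HSP40, the main partner of inducible HSP70, was at 8.32, 9.07, 9.72, 13.5, 25.1 and 14.9 FPKM, with a fitted peak at ZT15.9 and an amplitude of 0.66 ± 0.12 (limma adjusted p = 0.130). Dnaja1, a farnesylated partner of HSC70, was at 80.5, 134, 124, 121, 259 and 119 FPKM. Like Hspa8 it was lowest at ZT0 and level from ZT4 to ZT12. Dnaja4 was at 10.9, 13.8, 13.6, 14.7, 27.0 and 16.3 FPKM, and Dnajb4 at 13.4, 17.0, 17.2, 24.2, 32.4 and 21.9 FPKM. Fitted peaks were at ZT15.6 ± 1.3 h for Dnaja4 and ZT14.9 ± 0.7 h for Dnajb4, closer together than their SE (limma adjusted p = 0.289 and 0.143). Dnajb2, which has ubiquitin binding motifs, was at 19.1, 17.1, 17.6, 18.4, 29.2 and 23.6 FPKM. The gene Dnajb6, whose protein suppresses the aggregation of polyglutamine proteins, was highest at ZT12, at 46.9, 50.5, 59.3, 65.4, 60.2 and 44.3 FPKM, with a fitted peak at ZT11.3 and an amplitude of 0.27 ± 0.05 (limma adjusted p = 0.135).

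Of the same 27 J-domain genes, 13 were highest at ZT0, ZT4 or ZT8 (3, 7 and 3 genes). Of the 12709 symbols tested, 2036, 2151 and 1793 were highest at these times. The share of the 13 was thus near that of all symbols and does not set the J-domain genes apart. Those of the 13 described here had an unadjusted p under 0.05 and a mean of at least 5 FPKM. Dnajc6, which encodes the auxilin that uncoats clathrin vesicles with HSC70, was at 7.95, 9.20, 11.4, 10.8, 6.84 and 5.35 FPKM. It was highest at ZT8 and lowest at ZT20, with a fitted peak at ZT8.05 ± 0.6 h and an amplitude of 0.45 ± 0.07 (limma adjusted p = 0.110). Dnajc13, an endosomal protein, was at 38.4, 46.9, 37.1, 36.5, 30.9 and 29.4 FPKM. Dnajc1, of the endoplasmic reticulum membrane, was at 16.5, 16.8, 16.6, 15.0, 12.6 and 12.5 FPKM. For both, ZT16 and ZT20 were the lowest times and the fitted peak was near ZT5 (limma adjusted p = 0.185 and 0.175). For Dnajc1 this course lay in transcripts not annotated as protein-coding, at 9.24 FPKM at ZT0 and 3.71 FPKM at ZT16. Its coding transcripts were lowest at ZT0, at 7.30 FPKM, and stood at 8.87 FPKM at ZT16. With only the most abundant transcript of Dnajc1 the amplitude was 0.03. Dnajc22 was highest at ZT0 and lowest at ZT12, at 74.0, 70.8, 61.3, 57.2, 64.2 and 70.5 FPKM, with a fitted peak at ZT23.6 (limma adjusted p = 0.172). In the mitochondrial group Dnajc30 was at 23.5, 22.9, 23.2, 20.7, 18.1 and 20.7 FPKM, lowest at ZT16. The highest level was at most 2.13 times the lowest in this set, for Dnajc6. Among the other J-domain genes without a high ZT16 the highest level was at most 1.65 times the lowest (Dnajc17), and Dnajb12, Dnajc14 and Dnajc7 were among the 5 members of at least 5 FPKM with the smallest range. Dnajb12 lay between 20.9 and 22.5 FPKM, Dnajc14 between 18.4 and 19.9 FPKM, and Dnajc7, an HSP70 and HSP90 partner with TPR repeats, between 33.2 and 37.8 FPKM.

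The 10 mitochondrial chaperones tested ranged in mean level from 7.13 FPKM (Dnajc28) to 401 FPKM (Hspd1), and their highest level was 1.10 to 1.47 times the lowest. Hspa9, which encodes mortalin, was at 309, 339, 316, 339, 335 and 308 FPKM in time order, a highest level of 1.10 times the lowest. Dnaja3, the J-domain partner of mortalin, lay between 49.1 and 54.2 FPKM, with the same ratio of 1.10. Hspd1, the HSP60 of the folding chamber, was at 389.8, 403, 392, 365, 455 and 403 FPKM. Its lid Hspe1 (HSP10) was at 153, 141, 165, 156, 208 and 189.8 FPKM. For both genes ZT16 was highest, 1.17 times the mean of the other libraries for Hspd1 and 1.29 times for Hspe1, less than for any of the 16 members past the 1.5-fold line. Hspe1 had an amplitude of 0.23 ± 0.07 (limma adjusted p = 0.236) and Hspd1 one of 0.06 ± 0.06 (limma adjusted p = 0.766), which was 0.10 without ZT4 or without ZT12. They start from a shared stretch, and their annotated genes overlap by 112 bases on opposite strands. The pseudogene Hspd1-ps3, listed between 51.0 and 62.0 FPKM, is 98.95% identical to Hspd1 over 1722 bases, and Dnajc19-ps, listed between 21.4 and 28.1 FPKM, is 99.15% identical to Dnajc19 over 351 bases. Reads may be shared within each pair, so the split between gene and pseudogene is uncertain.

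The heat shock factor genes lay below 9 FPKM at every time. Hsf1 was at 5.997, 6.67, 5.67, 5.59, 7.85 and 8.56 FPKM in time order, and Hsf2 at 6.93, 7.38, 6.47, 7.53, 7.95 and 7.64 FPKM. Hsf1 was highest at ZT20 and Hsf2 at ZT16, at 1.53 and 1.23 times their lowest level. Neither wave was called (limma adjusted p = 0.326 for Hsf1 and 0.566 for Hsf2). HSF1 is known to be controlled mainly as a protein, which RNA levels do not measure.

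The sums above hide differences between transcripts. For Hspa8, the protein-coding transcript of 2019 bases was at 192, 371, 387, 394, 658 and 294 FPKM in time order, and a noncoding processed transcript of 727 bases was at 50.3, 241, 189.9, 202, 218 and 80.7 FPKM. The noncoding transcripts of Hspa8 thus held 38.8% of the gene's FPKM at ZT4 and 19.0% at ZT0. In Hsp90aa1, a coding transcript of 3281 bases was at 97.6, 57.0, 73.8, 66.8, 214 and 155 FPKM, and another coding transcript of 2852 bases at 60.4, 105, 59.0, 57.6, 132 and 103 FPKM. The shorter one was the more abundant at ZT4 and the longer one at each of the other times. Some transcripts not annotated as protein-coding were highest at ZT4. A retained-intron transcript of Hspa4 with 630 bases was at 7.003, 20.6, 16.4, 14.2, 9.12 and 5.47 FPKM, while the coding transcript of Hspa4 lay between 36.4 and 45.9 FPKM and was highest at ZT16. One of Dnaja2 with 507 bases was at 25.3 FPKM at ZT4 and between 2.88 and 6.96 FPKM at the other times. The Hsp90ab1 transcript of 703 bases that is annotated as a target of nonsense-mediated decay was at 85.7 FPKM at ZT4 and between 35.0 and 52.2 FPKM at the other times. Of 25 members with at least 5% of their FPKM in such transcripts on average, the highest share was at ZT0 in 6, ZT4 in 8, ZT8 in 3, ZT12 in 3, ZT16 in 4 and ZT20 in 1. ZT4 thus held 32.0% of these members, against 25.1% of the 4524 symbols tested with such a share. Transcripts of 1 gene share most of their reads, so the split between them is an estimate of the authors' software.

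**Figure D5:**
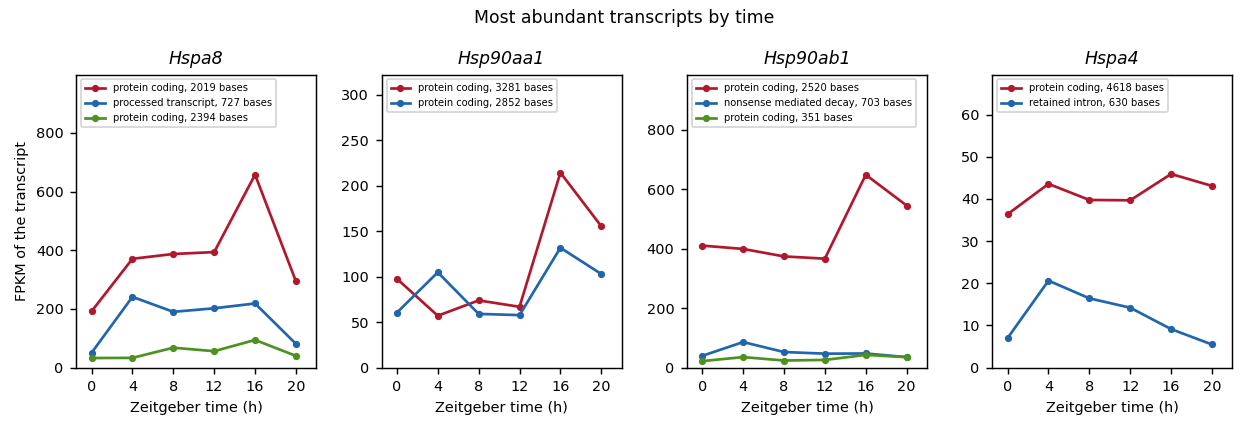
FPKM of the most abundant transcripts (lines, the 3 highest, where above 5 FPKM on average) of 4 members by zeitgeber time (x axis, 1 library each), with GENCODE's transcript type and the length in the key. The main coding transcripts of Hspa8, Hsp90aa1 and Hsp90ab1 are highest at ZT16, and the short transcripts of Hspa4 and Hsp90ab1 at ZT4.

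Partner genes that the rule did not take in were counted from fixed lists. Of 25 cytosolic partners, 23 were tested, 0 had a limma adjusted p under 0.05, 5 (21.7%) had an unadjusted p under 0.05 and 9 (39.1%) were highest at ZT16, against 19.1% and 16.6% of all symbols. The 2 with the smallest p were Sgtb, at 6.21, 7.97, 6.57, 4.99, 3.495 and 3.74 FPKM, and Fkbp4, an HSP90 partner of steroid receptors, at 105, 93.0, 92.9, 98.1, 153 and 154 FPKM. Of 11 mitochondrial partners, all tested, 1 passed: Clpx, the unfoldase of a mitochondrial protease, at 95.4, 67.0, 39.7, 36.6, 49.4 and 71.2 FPKM (limma adjusted p = 0.0318). The median deviation of this list at ZT16 was -0.03, against 0.09 for the cytosolic partners. Of 12 genes of the endoplasmic reticulum, 9 (75.0%) were highest at ZT16, 0 had a limma adjusted p under 0.05 and 5 (41.7%) an unadjusted p under 0.05. The 2 with the smallest p were Sdf2l1, highest at ZT16 with 24.4 FPKM, and Calr, highest at ZT20 with 459 FPKM. Hspa5, the reticulum's HSP70, was at 120.2, 141, 126, 136, 339.7 and 224 FPKM. The cold-inducible RNA binding protein gene Cirbp was at 37.5, 26.7, 31.3, 20.6, 9.005 and 11.1 FPKM, lowest at ZT16, and Rbm3 at 55.1, 60.3, 68.4, 81.6, 57.0 and 42.1 FPKM, lowest at ZT20 (limma adjusted p = 0.175 and 0.173).

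Other features of the libraries moved with the same times. The summed FPKM of the 5 blood genes was 171, 135, 124, 207, 314 and 297 from ZT0 to ZT20, all 5 had an unadjusted p under 0.05 with a peak between ZT12 and ZT24, and 3 were highest at ZT16. Hbb-bs and Hba-a1 passed the adjusted threshold (limma adjusted p = 0.0326 and 0.0423). The 3 podocyte genes summed to 35.3, 29.6, 25.7, 20.7, 49.0 and 64.5 FPKM, and the 3 endothelial genes to 28.3, 33.8, 27.3, 30.0, 43.0 and 49.9 FPKM. The 3 collecting duct genes summed to 132, 100.9, 138, 199, 209 and 206 FPKM. The part of these cells in the heat shock values was not tested. Immediate early genes, which respond to handling, summed to between 27.0 and 36.2 FPKM, with 31.4 FPKM at ZT16. Of the 5 tested, 0 were highest there, against 16.6% of all symbols. Fos, Fosb and Atf3 averaged under 1 FPKM and were not tested. Fos was highest at ZT16, at 0.390 FPKM, and Fosb and Atf3 at ZT20. An effect of handling was not tested. The kidney identity of the libraries was clear from the proximal tubule genes (1401 to 1604 FPKM over 5 genes) and Umod. Skeletal muscle and adrenal genes summed to at most 0.105 and 0.274 FPKM, with 1 of 3 in each list at 0 throughout, and adipose genes to 3.10 FPKM at ZT8 and at most 0.332 FPKM elsewhere. The FPKM of a library summed to between 534448 and 577493, transcripts of the mitochondrial genome held 22.2% to 28.6% of it, and the number of reads is unknown.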

How the data were processed

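Per the file headers, the authors' deposited values are FPKM, 1 line per Ensembl transcript and 1 column per library, beside the transcript's length in bases. The submitters' processing notes name bcl2fastq 2.20 and mm9, and the labels' protocols describe strand-specific Agilent SureSelect libraries. Neither the aligner nor the FPKM software is given in the sources used here. Of 338 member transcripts found in GENCODE M21, 337 lay inside the locus of the table, so positions are given on GRCm38. Low FPKM values times length showed no steps of whole reads (98.9% to 99.7% of the lowest values differed from all others to 6 digits), so depth is unknown and no counting interval is given.

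Transcripts were summed per symbol, those averaging 1 FPKM or more entered the tests as log2(FPKM + 1), a scale that understates the fold changes of low genes. For each symbol limma 3.58.1 (R 4.3.3) fitted a cosine and a sine of time at 24 h or 12 h (eBayes with trend, 3 residual degrees of freedom, moderated F test, Benjamini-Hochberg over 12709 symbols). P-values measure a course of single libraries. Single members were also set against the 60 circular orders of the libraries by an exact permutation test. In simulated data of 12709 genes with 200 waves, 74.7% of amplitude 0.5 and 98.7% of amplitude 1 were found for the 24 h test. The waves there were exact cosines on genes drawn at random, and the noise was independent between genes. On average 14.7 flat genes were called per run. The shares found therefore do not give the power for the members.

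The members and lists were chosen with earlier results of these data known. Named members are those of at least 5 FPKM whose range was at least 1 on the log2 scale, 18 fixed anchors, the 5 with the smallest range, and those highest at ZT0, ZT4 or ZT8 with an unadjusted p under 0.05; other members were named after their values were seen. Alternatives were a pseudocount of 0.1, no filter, median-of-ratios scaling, a minimum mean of 5 FPKM, the most abundant transcript, limma without trend or with robust moderation, and omission of each time. Promoters are from RefSeq (GRCm38.p6). Other steps used Python 3.11.15, numpy 2.4.6, pandas 2.3.3, biopython 1.88 and matplotlib 3.10.9.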

Additional observations from a re-analysis of the deposited data

How the results depend on the processing

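No alternative changed the count of 0 members at adjusted p under 0.05 for either wave. For the 31 named members, 0 of 402 adjusted p under 13 alternatives passed, and the lowest was 0.0838. Members at unadjusted p under 0.05 for 24 h (24) numbered between 10 (16.4%) and 25 (41.0%) with 1 time left out, against 9.1% to 19.1% of all symbols. With no filter there were 16 (21.6%, against 12.7%). For 12 h (0) they were between 0 and 7 (11.5%) with 1 time left out, against 1.16% to 3.32% of all symbols. With no filter there were 2 (2.7%, against 2.98%). Over all symbols the 36 adjusted 24 h calls became 0 with no filter, 2 with the most abundant transcript, 7 without trend, 66 with robust moderation and between 0 and 3 with 1 time left out. The 7 calls for 12 h became 3 with a pseudocount of 0.1, 1 with no filter, 2 at a mean of 5 FPKM, 3 with the most abundant transcript and between 4 and 13 with 1 time left out. The cause was not tested. Members highest at ZT16 (25 of 61) stayed between 22 of 52, at a mean of 5 FPKM, and 29 of 61, without ZT20. The share of all symbols highest at ZT16 was 16.6% with the main settings and was not counted under the alternatives. Members 1.5-fold higher at ZT16 (16 of 61, alternatives chosen after seeing the data) stayed between 15 and 17, against 1.15% to 2.86% of all symbols. In both counts 52 members were tested at a mean of 5 FPKM, 74 with no filter and 61 otherwise. The median deviation of all 61 tested members at ZT16 (0.07) lay between 0.0349 (without ZT0) and 0.0879 (without ZT12). Without ZT16 these results have no value. Median-of-ratios factors lay between -0.03 and 0.03 (log2). No paired analysis was possible because each time has 1 library.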
